A study of Mus musculus with 4 samples.

Results

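Wwox, Fhit, Macrod2, Magi2 and Immp2l are very long genes that lie at common fragile sites. The 5 genes were followed through a list of regions in which captured, methylated DNA was lower in a tamoxifen library than in an oil library. Every listed region that overlapped a gene's RefSeq body, extended by 2000 bp on both sides, was taken as a member. This gave 64 regions of the 39231 in the list, of which 44 were in Wwox and 20 in the other 4 genes together. The genes had been chosen by their counts of listed regions, that is by the tamoxifen and oil tags of this same comparison, so counts, densities and folds are given as a description and no test of them was made.

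The cells were satellite cells, which lie along muscle fibres and renew them as stem cells, taken from hindlimb muscles of 9-week-old mice and cultured for 3 days. The tamoxifen group had been injected daily for 5 days with 150 µl of tamoxifen at 20 mg/ml so that Cre recombinase made satellite cells deficient in Uhrf1, and the oil group served as control. The labels do not name the Cre driver, the strain, the floxed interval or the number of animals behind a library. Capture by the methyl-CpG binding protein MBD2 separated methylated from non-methylated fragments, and sequencing of each fraction gave 4 libraries in 4 groups of 1 sample. The list compares 1 tamoxifen library with 1 oil library and does not say which fraction was used; it is read here as the methylated one, and every statement about captured DNA rests on that reading. After duplicate removal the tamoxifen library held 25614791 tags and the oil library 19534328. Before it they held 36519772 and 35216008, with redundant rates of 0.30 in tamoxifen and 0.45 in oil. Most of the difference in size, by which the folds are scaled, thus arose with duplicate removal. With 1 library per treatment, the deletion cannot be told apart from the drug, from differences between animals and cultures or from unequal capture, and no spread between mice can be given. A list of DNA regions holds no expression level, so the cell type named in the labels could not be checked against its markers.

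Common fragile sites are stretches of chromosomes that show gaps and breaks when DNA replication is slowed, and many of them span very long genes. Wwox encodes a WW-domain oxidoreductase and Fhit a hydrolase of dinucleoside polyphosphates, and both are known as tumour suppressors. Macrod2 encodes an enzyme that removes ADP-ribose from proteins, Magi2 a scaffold protein of cell junctions and synapses, and Immp2l a subunit of a mitochondrial inner membrane peptidase. Uhrf1 recruits the maintenance methyltransferase Dnmt1 to newly replicated DNA, and methylation inside gene bodies is common in mammalian cells. The files hold no measure of breakage or of copy number, and a change in the number of DNA copies would alter tags too.

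Promoters are shown first because none of those matched held a region. RefSeq promoter windows (GRCm38.p6, 250 bases before to 50 after a start site) were matched for Fhit, Macrod2, Magi2 and Immp2l. Wwox, the member with most regions, had no window to match, so its promoter was not examined and its strand was not used. In the sequences below, every CG, the dinucleotide that MBD2 binds when it is methylated, is in capitals. For each matched gene the outermost matched window is printed in the direction of transcription. Their places are chr14:11161986-11162285 (minus strand) for Fhit, chr2:140395180-140395479 (plus) for Macrod2, chr5:19226796-19227095 (plus) for Magi2 and chr12:41023840-41024139 (plus) for Immp2l.
Fhit promoter: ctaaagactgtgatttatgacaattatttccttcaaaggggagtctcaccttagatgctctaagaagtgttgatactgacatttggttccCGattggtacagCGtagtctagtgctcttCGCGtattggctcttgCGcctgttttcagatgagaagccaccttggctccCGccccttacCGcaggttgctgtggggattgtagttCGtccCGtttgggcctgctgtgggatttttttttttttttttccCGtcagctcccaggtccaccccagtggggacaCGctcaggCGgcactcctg
Macrod2 promoter: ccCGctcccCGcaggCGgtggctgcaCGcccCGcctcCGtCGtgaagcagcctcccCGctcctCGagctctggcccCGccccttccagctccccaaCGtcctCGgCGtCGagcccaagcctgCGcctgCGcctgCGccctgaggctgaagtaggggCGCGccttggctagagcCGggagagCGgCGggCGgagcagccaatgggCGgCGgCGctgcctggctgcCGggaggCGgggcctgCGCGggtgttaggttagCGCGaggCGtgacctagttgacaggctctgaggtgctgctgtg
Magi2 promoter: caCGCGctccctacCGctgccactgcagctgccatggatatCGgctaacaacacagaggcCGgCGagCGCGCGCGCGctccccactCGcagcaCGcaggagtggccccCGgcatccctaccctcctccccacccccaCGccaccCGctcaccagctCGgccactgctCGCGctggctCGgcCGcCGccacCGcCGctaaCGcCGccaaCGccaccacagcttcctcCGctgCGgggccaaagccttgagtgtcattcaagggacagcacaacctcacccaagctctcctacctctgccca
Immp2l promoter: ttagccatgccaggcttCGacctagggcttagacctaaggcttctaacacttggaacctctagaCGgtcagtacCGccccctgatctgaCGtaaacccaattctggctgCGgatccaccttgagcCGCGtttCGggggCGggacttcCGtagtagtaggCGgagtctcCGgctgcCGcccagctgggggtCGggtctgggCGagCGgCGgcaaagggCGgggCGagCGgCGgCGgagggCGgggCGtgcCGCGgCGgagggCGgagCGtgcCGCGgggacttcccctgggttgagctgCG
The windows differed in CG content. Macrod2 had 33 CG, Immp2l 32 and Magi2 29, which was more than in 91.4%, 90.5% and 87.1% of the 32851 windows in the table. Fhit had 12, more than in 60.4% of them. CG reads the same on both strands, 94.6% of all windows held at least 1, and the median window held 7. The table also gave an inner window for Fhit (7 CG, chr14:10453409-10453708), for Magi2 (4 CG, chr5:19907268-19907567) and for Macrod2 (33 CG, shifted by a few bases from the outermost).

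None of these 7 windows overlapped a listed region, against 1.28% of all windows that did. No matched start site of the 4 genes had a region within 2000 bp, where 8.5% of all start sites had one. At such shares 7 windows without a region are not a result about these genes. The closest approach was in Fhit, where the region from 11159402 to 11159629 had its summit 2.48 kb downstream of the outermost start site. In Macrod2 the first region lay 67 kb downstream of it. In Magi2 and Immp2l the region nearest to the outermost start site lay upstream and outside the gene, 43.4 and 220 kb away. The outermost matched start site of Magi2, at 19227046, lies inside the gene, whose left end is at 19219387. The regions of these 4 genes had their summits inside the gene body, at 2.48 kb or more from the outermost start site. Exons and introns were not told apart because the gene table gives only gene ends.

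All 5 genes carried at least 1 region, as did 94.7% of the 227 protein-coding genes of 500 kb or more and 45.2% of all 21887 protein-coding genes. Wwox (chromosome 8, 114439635 to 115352712, 913 kb) held 44 regions, or 4.80 per 100 kb of extended gene. Magi2 (chromosome 5, 19219387 to 20704792, 1485 kb) held 8, or 0.54 per 100 kb. Macrod2 (chromosome 2, 140395303 to 142392966, 1998 kb) held 7, or 0.35 per 100 kb. Wwox was therefore rich in regions, and longer members held far fewer. Fhit (chromosome 14, 9550092 to 11162061, 1612 kb) held 4, or 0.25 per 100 kb. Immp2l (chromosome 12, 41024061 to 41955588, 932 kb) held 1, or 0.11 per 100 kb. Wwox and Immp2l are of nearly the same length and stood at the extremes, with a density 44.9 times higher in Wwox. Against Fhit, Macrod2 and Magi2 the density of Wwox was 19.4, 13.7 and 8.93 times higher.

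Exact 95% Poisson limits, which cover counting error alone and assume independent regions, were 3.49 to 6.44 regions per 100 kb in Wwox. They were 0.23 to 1.06 in Magi2, 0.14 to 0.72 in Macrod2, 0.067 to 0.63 in Fhit and 0.0027 to 0.60 in Immp2l. They describe the precision of counts by which the genes had been chosen, and no comparison between genes rests on them. The counts of Fhit and Macrod2 also moved with the setting. At a q limit of 1e-10, which 82.8% of all regions passed, Fhit kept 2 regions, and with unscaled tamoxifen tags only 4 regions of Macrod2 had a fold of 2 or more.

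**Figure D1:**
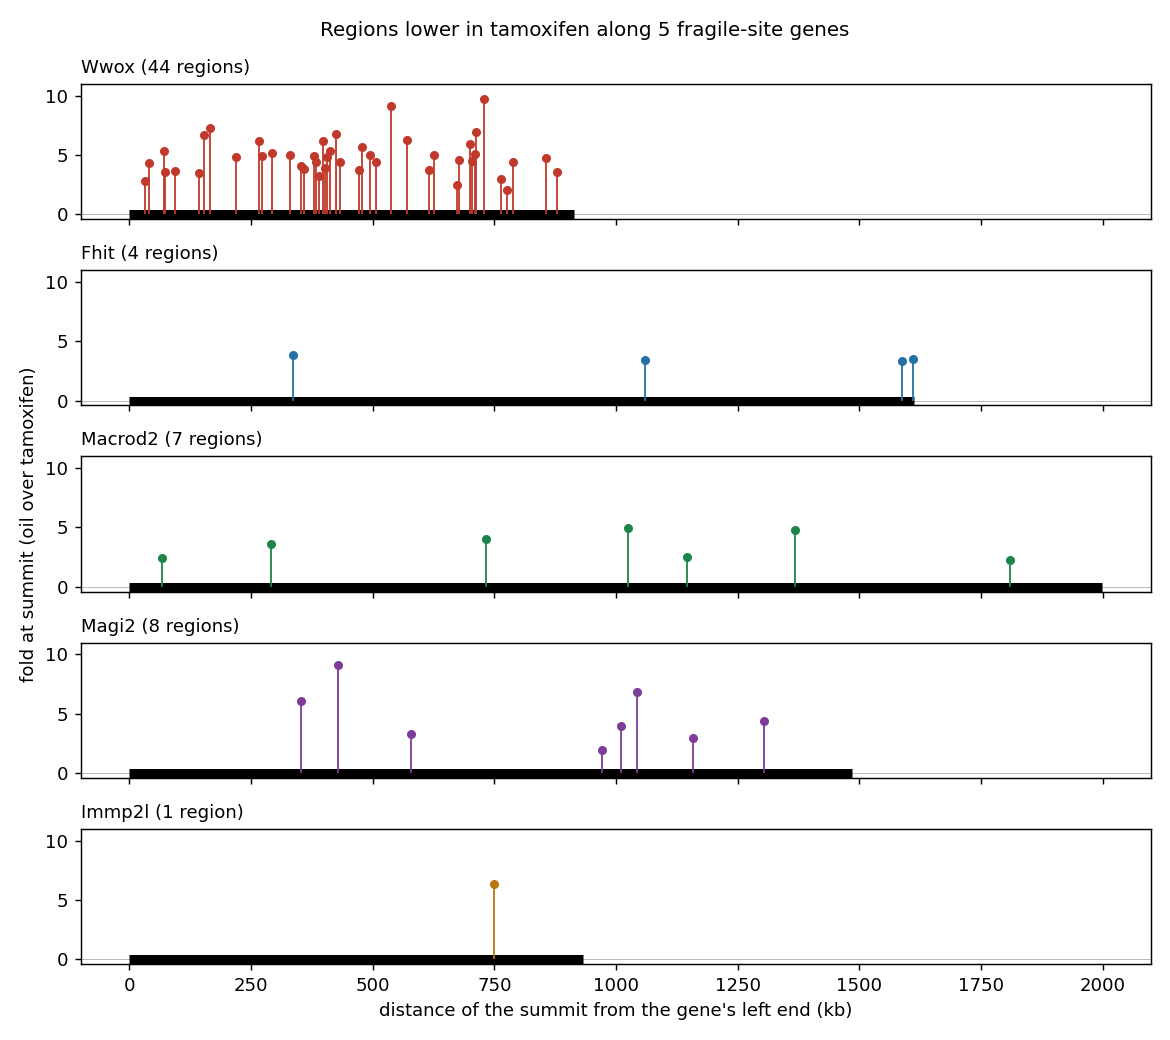
Position of each of the 64 regions along its gene (x axis, kb from the end with the lower coordinate) and its fold at the summit (y axis, oil over tamoxifen); each stem is 1 region and the black bar is the gene. Wwox carries 44 stems spread over 913 kb, while Immp2l, of nearly the same length, carries 1.

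At the region summits of Wwox the median share of captured signal left in tamoxifen was 19.5% of that in oil after scaling. The median region had 12.5 tamoxifen tags, unscaled, and 51.5 oil tags, a median fold of 4.77. These values are close to those of all 39231 regions, which had medians of 14 tamoxifen and 51 oil tags, a fold of 4.61 and 20.1% of signal kept. The fold was 4 or more in 31 of the 44 regions (70.5%), against 66.1% of all regions. It was 10 or more in none of the 64 regions of the 5 genes, where 2.03% of all regions reached that. Wwox was thus rich in the number of regions, and the size of the difference within them resembled that of the list at large. In the other 4 genes together, 8 of 20 regions had a fold of 4 or more, against the same 66.1% of all regions. Their median fold was 3.73. All folds had to pass the caller's q limit of 1e-04 and were read at the point where oil was highest, so they are biased upward.

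The region of Wwox with the highest fold, from 115168546 to 115168748, had 3 tamoxifen tags and 31 oil tags, a fold of 9.73 (exact 95% limits of the scaled tag ratio 4.23 to 69.3). The next, from 114978032 to 114978354, had 10 tamoxifen and 78 oil tags and a fold of 9.16 (limits 5.28 to 22.2). Both rest on few tamoxifen tags. The third, from 114604568 to 114604817, had 5 tamoxifen and 34 oil tags (fold 7.27), and the fourth, from 115151955 to 115152633, had 20 tamoxifen and 112 oil tags (fold 6.95). The fifth, from 114863355 to 114863560, had 2 or fewer tamoxifen tags and 20 oil tags, so that the fold of 6.77 reflects the lowest background the caller allows. That also held for the region from 114706904 to 114707133, so 2 of the 44 folds are not measured ratios.

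The best covered regions of Wwox differed widely in fold. The region from 115214986 to 115215290 had the most tags in either library, 137 in tamoxifen and 210 in oil, and the lowest fold of the gene, 2.00 (limits 1.61 to 2.51). The second by oil tags, from 115112520 to 115113075, had 94 tamoxifen and 181 oil tags and a fold of 2.50 (limits 1.96 to 3.27). The third, from 115010932 to 115011357, had 36 tamoxifen and 176 oil tags and a fold of 6.22 (limits 4.46 to 9.45). After scaling, the tamoxifen signal at these regions was 49.8%, 39.6% and 15.6% of the oil signal, in 1 library per treatment. With unscaled tamoxifen tags the folds of these regions were 1.53, 1.92 and 4.78. In all, 10 regions of Wwox had 100 or more oil tags and 6 had under 30. Over the whole list, 86.4% of regions had fewer than 104 oil tags and 14.3% fewer than 31. Shares at the exact cuts of 100 and 30 were not computed.

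**Figure D2:**
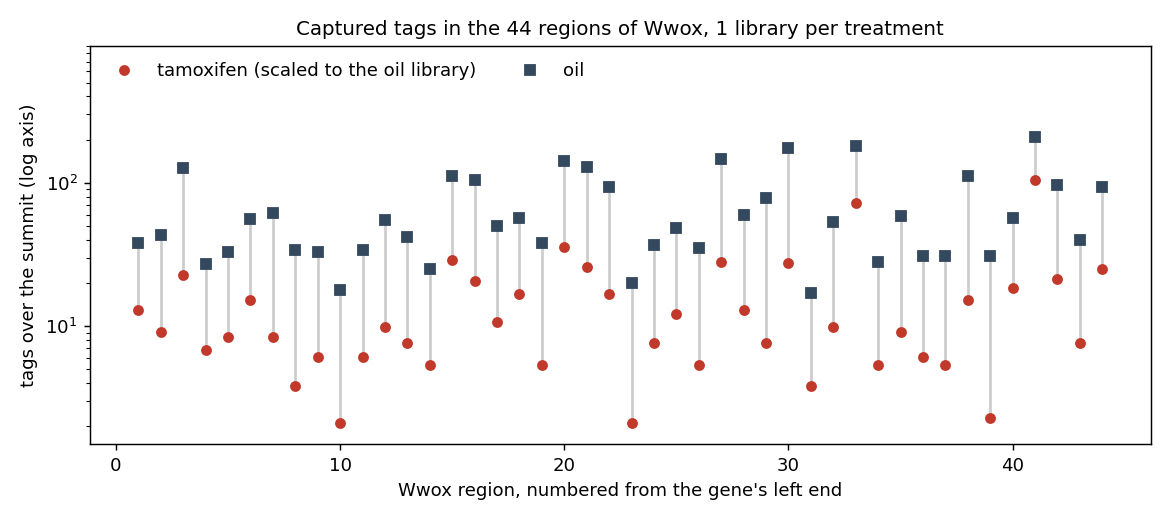
Tags over the summit of each of the 44 regions of Wwox (log axis), in the order of their place along the gene, for the tamoxifen library scaled to the size of the oil library (circles) and for the oil library (squares). Tamoxifen lies below oil at every region, and the smallest gap is at the region with 210 oil tags, where the fold is 2.00.

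The regions of Wwox ran through nearly the whole gene. The first region, from 114471283 to 114471500, had its summit 31.7 kb inside the left end (17 tamoxifen and 38 oil tags, fold 2.79). The last, from 115317795 to 115318384, lay 34.7 kb inside the right end (33 tamoxifen and 93 oil tags, fold 3.59). Between them the median gap from summit to summit was 12.2 kb and the longest 67.4 kb, or 7.38% of the gene. Several gaps inside the gene, among them 48.9, 54.5 and 67.4 kb, were longer than the distance from either end to its nearest region. Cut into 5 stretches of equal length from the left end, the gene held 8, 7, 14, 10 and 5 regions. The middle stretch thus held most, 31.8% of the regions. The fullest 100 kb, from the summit at 114770737 to that at 114863471, held 11, against a median of 2 for the fullest 100 kb of the 227 genes of 500 kb or more. Zfhx3, Tenm3 and Smyd3 were the other genes of that length with 11 or more in such a window. The 227 genes held a median of 4 regions in all. The contrast of 11 with 2 thus cannot be told apart from the count by which Wwox was chosen. Among neighbours in Wwox, 17 of 43 gaps were under 10 kb, and the closest pair lay 0.92 kb apart. The share of such gaps over all regions was not computed, and Wwox held 1 region per 20.8 kb. The count of 17 is therefore not a result about grouping within the gene. Over the same 5 stretches the median fold was 3.98, 4.93, 4.85, 5.00 and 3.59, and the median oil tags were 40.5, 34, 58.5, 42 and 93.

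Magi2 had 8 regions in 2 groups, with none in the first 20% or the middle 20% of the gene and an empty stretch of 391 kb between the groups. The left group held the region of highest fold outside Wwox, from 19649037 to 19649238, with 4 tamoxifen and 36 oil tags (fold 9.13, limits 4.23 to 45.6). Beside it were the region from 19571371 to 19571746, with 18 tamoxifen and 88 oil tags (fold 6.04), and that from 19798496 to 19798712, with 26 tamoxifen and 67 oil tags (fold 3.26). The right group held the weakest region of all 64, from 20189657 to 20189866, with 57 tamoxifen and 84 oil tags and a fold of 1.91 (limits 1.36 to 2.75). It was 1.47 with unscaled tags. Only 72 kb separated that summit from the region of 20261682 to 20261983, which had 21 tamoxifen and 115 oil tags and a fold of 6.82 (limits 4.48 to 12.0). Between that pair, the region from 20228323 to 20228699 had 7 tamoxifen and 24 oil tags (fold 3.94). Further right, the regions starting at 20376286 and 20522140 had 36 tamoxifen and 84 oil tags (fold 2.99) and 53 tamoxifen and 182 oil tags (fold 4.42).

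Macrod2, the longest member, had its 7 regions far apart, with a median gap of 258 kb and no pair within 100 kb of each other. The region nearest to the start site, from 140462379 to 140462790, had 64 tamoxifen and 120 oil tags, a fold of 2.43 (limits 1.80 to 3.38). The next, starting at 140686825, had 7 tamoxifen and 22 oil tags (fold 3.63), and the third, starting at 141127430, had 23 tamoxifen and 74 oil tags (fold 4.05). The middle of the gene held the region of highest fold, from 141418744 to 141419047, with 12 tamoxifen and 49 oil tags (fold 4.93, limits 2.81 to 11.1). The best covered region, from 141541498 to 141541794, had 99 tamoxifen and 192 oil tags and a fold of 2.52 (limits 1.99 to 3.27). It lay 221 kb from the region of 141762788 to 141763112, which had 43 tamoxifen and 162 oil tags and a fold of 4.82 (limits 3.51 to 7.09). The last region, from 142203736 to 142204160, had 25 tamoxifen and 45 oil tags and a fold of 2.29. In Macrod2 3 of 7 regions had a fold under 3, and in Wwox 3 of 44, where 10.2% of all regions did. The median fold was 3.63 in Macrod2, against 4.61 over all regions.

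Fhit, named for its histidine triad, had 4 regions of nearly the same fold, from 3.34 to 3.83, all under the 4.61 of the median region. The left one, from 9886176 to 9886443, had 10 tamoxifen and 32 oil tags (fold 3.83, limits 2.01 to 9.57). The next, from 10608493 to 10608712, lay 722 kb away and had 14 tamoxifen and 39 oil tags (fold 3.43). This empty stretch was 44.8% of the gene. The other two stood together near the start site at the gene's right end, 22.3 kb apart. The one from 11137101 to 11137463 had 25 tamoxifen and 66 oil tags (fold 3.34, limits 2.15 to 5.73), and the one nearest to the start site had 15 tamoxifen and 43 oil tags (fold 3.54, limits 2.05 to 7.28). At a q limit of 1e-10 this pair was what Fhit kept.

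Immp2l had a single region, from 41773651 to 41773976, 80.5% of the way along the gene and 750 kb from its start site. It had 9 tamoxifen and 49 oil tags and a fold of 6.36 (limits 3.47 to 16.5), higher than 81.1% of all regions. The gene poorest in regions thus did not carry a weak one. All of Immp2l to the left of that region, including its start site, was empty.

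**Figure D3:**
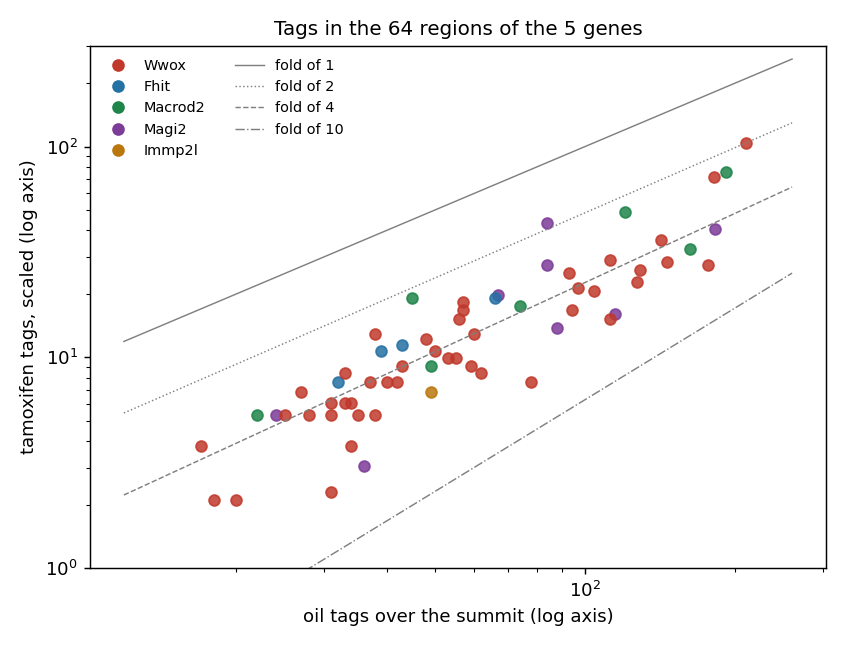
Tamoxifen tags scaled to the oil library (y axis, log) against oil tags (x axis, log) over the summit of each of the 64 regions, coloured by gene, with lines at folds of 1, 2, 4 and 10. Points of Wwox surround the line at a fold of 4, those of Fhit lie above it, and none reaches the line at 10.

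Of the 64 regions, 5 overlapped other genes annotated inside the members. In Wwox 2 of the 4 nested lncRNA genes held a region, Gm16116 (fold 6.71, 11 tamoxifen and 62 oil tags) and Gm16118 (fold 6.13, 2 or fewer tamoxifen and 18 oil tags). Wwox held 1 region per 20.8 kb, and the share of all lncRNA genes with a region was not computed. The count of 2 is therefore not a result about nested genes. In Magi2 the region of 9.13-fold lay in the lncRNA gene Gm52766. The left region of Fhit overlapped the transcribed pseudogene Mnd1-ps and the region of Macrod2 starting at 141127430 the pseudogene Zcchc9-ps. These were 2 of the 8 pseudogenes inside the 5 genes, where 10.2% of all pseudogenes overlapped a region. Reads of a pseudogene can come from its parent gene, and the sources used here do not say how reads with several matches were treated, so these 2 regions are uncertain. Flrt3 inside Macrod2 and Lrrn3 inside Immp2l, both of which encode leucine-rich repeat membrane proteins, held no region. At 0.35 regions per 100 kb of Macrod2 and 0.11 of Immp2l, their lack of regions is not a result about them.

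The surroundings of the genes were compared by counting regions in the 1 Mb on either side. Wwox held 4.82 regions per 100 kb inside the gene and its flanks 1.15, a ratio of 4.19. In the other members the gene was the poorer part. Fhit held 0.25 inside and 1.20 in the flanks, Macrod2 0.35 and 0.70, Magi2 0.54 and 0.85, and Immp2l 0.11 and 0.55. Most flank regions of Fhit, 16 of 24, lay to its right, where the receptor phosphatase gene Ptprg is. Those of Magi2 lay almost all to its right, 16 against 1 to its left. Taken alone, the left 1 Mb of Magi2 was thus poorer in regions than the gene. The right flank of Wwox, with the transcription factor gene Maf, held 15 and its left flank 8. Inside Wwox the density was 2.73 times the 1.76 per 100 kb of chromosome 8, while the other 4 genes lay between 0.078 and 0.27 times the density of their own chromosomes.

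**Figure D4:**
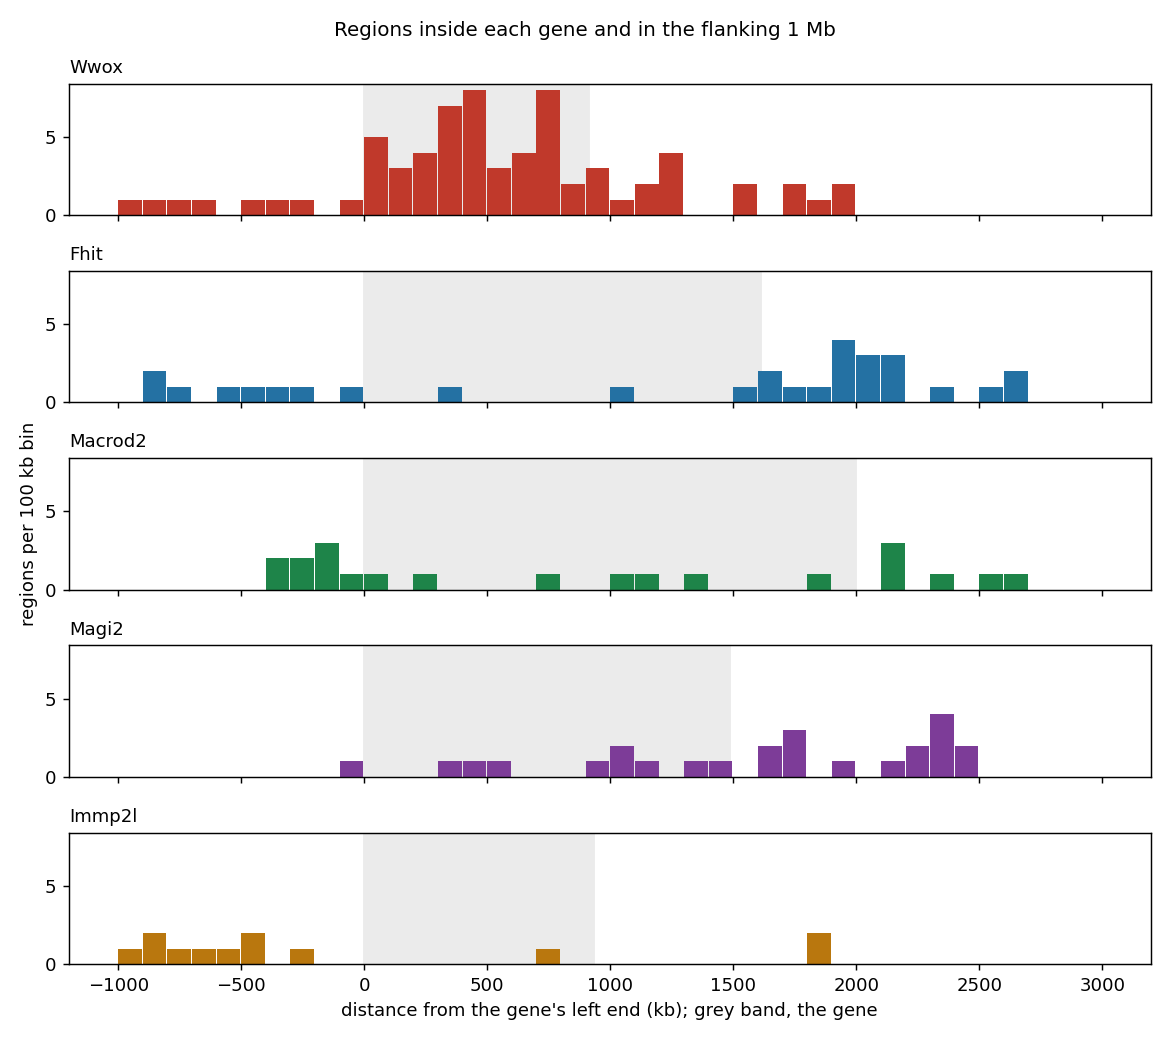
Number of region summits per 100 kb bin (y axis) along each gene and the 1 Mb on either side (x axis, kb from the gene's left end); the grey band is the gene, and its last bin can include flank. The bins of Wwox reach 8 inside the gene, whereas the fullest bins of Fhit and Magi2 lie to the right of the gene.

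No member gained a region from its extended edges, and the regions just outside the limit were as follows. To the right of Magi2, the region from 20706846 to 20707086 lay 2.05 kb beyond the gene, with 3 tamoxifen and 27 oil tags (fold 8.52). To the right of Wwox, the region from 115357142 to 115357370 lay 4.43 kb beyond the gene, with 10 tamoxifen and 51 oil tags (fold 6.03). The last region inside that limit on the same side was 34.7 kb within the gene. For the other gene ends the nearest outside region was 19.3 kb to 917 kb away, the farthest being to the right of Immp2l.

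Among the 227 protein-coding genes of 500 kb or more, whose median was 0.47 regions per 100 kb (quartiles 0.23 and 1.02), Wwox ranked second. Zfhx3, a transcription factor gene also on chromosome 8, was denser, with 43 regions over 682 kb (6.27 per 100 kb). Magi2 ranked 101, Macrod2 141, Fhit 167 and Immp2l 208. Wwox thus stood at 10.2 times the median of long genes and the other 4 between 0.23 and 1.15 times. The place of Magi2 relative to the median rested on the length limit, since it exceeded 55.5% of genes of 500 kb or more and 43.1% of those of 300 kb or more. Among all protein-coding genes, 22.8% were as dense as Wwox or denser, the mean of all being 2.93 and the median 0. A short gene can reach such a density with 1 region, so this share is not a like comparison.

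The long genes nearest to Wwox in density, over 1 value per gene, were Grip1 (4.70 per 100 kb, 30 regions), Foxp1 (4.66, 28 regions), Atrnl1 (4.37, 23 regions), Smyd3 (3.86, 22 regions) and Camta1 (3.72, 30 regions). Each of them is shorter than Wwox, from 522 to 802 kb. The genes nearest to Wwox in length held few regions. Dpp6 (910 kb) and Adamtsl1 (915 kb) had 1 each, Nlgn1 (911 kb) 2 and Nckap5 (917 kb) 6. Around Immp2l, Grm7 had 1, Cdh18 6, Sntg1 5 and Thsd7b 2. Around Fhit, Robo2 and Nrxn3 had 2 each, Csmd1 3 and Ctnna3 12. Around Magi2, Gpc5 had 4, Rbfox1 8 and Dpp10 none, and around Macrod2, Dlg2 had 6, Lrp1b 8, Lsamp 3 and Csmd1 3. Fhit, Macrod2, Magi2 and Immp2l were thus within the range of counts of these neighbours in length, and Wwox was above all of its own.

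**Figure D5:**
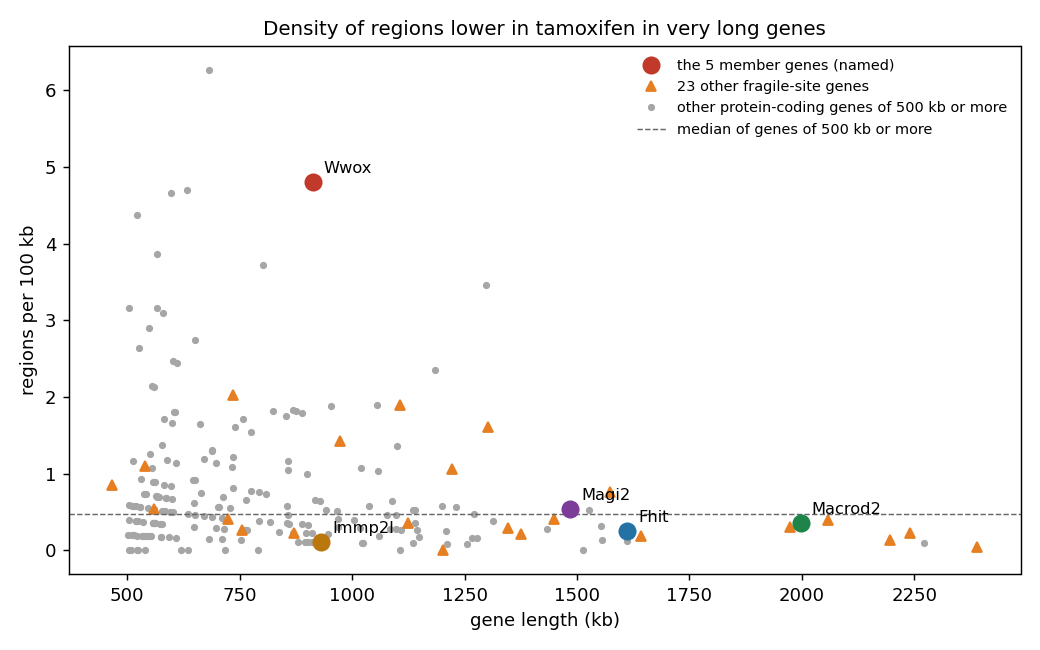
Regions per 100 kb (y axis) against gene length in kb (x axis) for the 5 named genes, 23 other fragile-site genes (triangles) and the remaining protein-coding genes of 500 kb or more (dots), with the median of the latter length class as a dashed line. Wwox stands at 4.80 and every other fragile-site gene at 2.03 or less.

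Other genes named at common fragile sites in human cells were counted from a list drawn up from general knowledge. Of 23, 22 carried a region, 159 regions in all. As 94.7% of all protein-coding genes of 500 kb or more carried 1, this count is not a result about fragile-site genes. The median density was 0.39 per 100 kb, against 0.47 for all genes of 500 kb or more. In 9 of the 23 it was above that median, and in none was it as high as in Wwox. The densest were the nuclear receptor gene Rora (2.03 per 100 kb, 15 regions), Auts2 (1.89, 21 regions), the phosphodiesterase gene Pde4d (1.61, 21 regions) and the cell adhesion gene Sdk1 (1.43, 14 regions). The sparsest were Ccser1, which had none over 1203 kb, the dystrophin gene Dmd (0.042, 1 region over 2390 kb), Lsamp (0.14, 3 regions) and Csmd1 (0.18, 3 regions). Dmd lies on chromosome X. Densities in the wider list thus ran from 0 to 2.03 per 100 kb, below that of Wwox throughout. Immp2l was above 2 of the 23 and Fhit above 7. The list holds no value for DNA that was equal or higher in tamoxifen, so a gene without regions may have lacked methylation, kept it, gained it or been covered by too few tags. CpG content along the genes was not analysed here, and its part in the densities was not tested.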

How the data were processed

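Captured DNA of cultured mouse satellite cells was compared between 1 tamoxifen and 1 oil library. Per the submitters' processing notes, Trim Galore, HISAT2, mm10 and MACS2 2.2.6 were used. Per the file headers, the authors called regions with the oil alignment as treatment input and the tamoxifen alignment as control input, although the list's name has the opposite order. Per the file headers, tamoxifen tags were scaled down to the oil library (factor 0.763), 1 tag per position and strand was kept, tags of 130 bp were extended to 201 bp, regional background was switched off and regions had to pass a q of 1e-04. The deposited pileup is a signal value, the oil tags over the summit. The deposited fold is the ratio of oil tags plus 1 to scaled tamoxifen tags plus 1. The deposited -log10 p and -log10 q values stand under headings lost to a spreadsheet error and were read by their place; they compare 2 libraries, not 2 conditions.

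Tamoxifen tags were computed from pileup and fold and were whole within 0.02 in 38251 regions (97.5%). The other 980 stood at the lowest background, 2.10 scaled tags, and are given as 2 or fewer tags. The largest difference between recomputed and deposited -log10 p values was 0.000173. Limits on tag ratios are exact (Clopper-Pearson) and cover counting error only.

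Genes came from the RefSeq table of GRCm38.p6, the assembly of mm10. Any overlap of 1 bp with a gene and 2000 bp on either side counted. Densities are per 100 kb of extended gene, and positions are of summits. Rank was taken among protein-coding genes of 500 kb or more. Genes nearest in length were the next 2 above and below each member, of which 1 is not reported here. Named were all 5 members, every region of those with 10 or fewer, and for Wwox the 5 highest and 3 lowest folds, the 3 with most oil tags and the region nearest each end. Regions outside the gene limit, in nested genes or in the fullest window were named after their values were seen. The members and lists were chosen with earlier results of these data known. Counting and tag recovery were tested on simulated data. Python 3.11.15, pandas 2.3.3 and scipy 1.17.1 were used.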

Additional observations from a re-analysis of the deposited data

How the results depend on the processing

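Of 122 alternative values for 26 results, 110 stayed within 1.5 times the count or density, or within 95% limits for medians, shares and percentiles. These values overlap, since the count and density of a gene change together. The 1 region of Immp2l has a -log10 q of 22.5, so its count and fullest stretch could hardly move. The tally is therefore no measure of robustness. Wwox kept 37 to 46 regions under every alternative tried and stayed at or above the 97.3 percentile of long genes. Its median fold was 5.13 as a ratio of tags with nothing added and 3.72 with tamoxifen tags not scaled, both outside the limits of the median of 4.77. Without scaling, the median fold of Fhit was 2.71. At a q limit of 1e-10 Fhit had 2 regions (0.12 per 100 kb), 100% of them in the last 20% of the gene, and its percentile among long genes was 18.1; it was 19.6 among genes of 300 kb or more, against 26.4. Macrod2 had 4 regions (0.20 per 100 kb) when an unscaled fold of 2 or more was required. The percentile of Magi2 was 43.1 among genes of 300 kb or more, and that of Immp2l 14.5 at a q limit of 1e-10. The stricter limits leave fewer regions and the lower length limit adds genes by construction; for the folds without scaling, the same regions were used and the tamoxifen tags were not multiplied by 0.763. For the 23 other fragile-site genes, 2 alternatives chosen after seeing the data gave median densities of 0.29 (q limit 1e-10) and 0.39 (no extension). No paired analysis was possible because each group has 1 library. No replicate could be left out for the same reason, and at under 30 oil tags a fold rests on few counts.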
